A study of Arabidopsis thaliana with 8 samples.

Results

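Levels of 10 Arabidopsis thaliana genes for wall glycoproteins were followed in whole seedlings of 4 genotypes. They were taken by locus identifier from the 33602 genes of the deposited table: the extensins EXT1 (AT1G76930) and EXT3 (AT1G21310), the arabinogalactan proteins AGP30 (AT2G33790), AGP31 (AT1G28290) and AGP4 (AT5G10430), the proline-rich proteins PRP2 (AT2G21140) and PRP4 (AT4G38770), and the leucine-rich repeat extensins LRX3 (AT4G13340), LRX4 (AT3G24480) and LRX5 (AT4G18670). All 10 passed the filter on low counts. The rule that names them uses no measured value, but they were chosen with earlier results of these data known. The deposited table lists EXT1 under the feature name ATEXT4.

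The groups were the Columbia wild type Col-0 (WT), the single mutants cob-6 and sfr6-3, and the double mutant cob-6sfr6-3, each with 2 libraries. The cob-6 allele affects COB, the gene of a glycosylphosphatidylinositol-anchored protein that orients cellulose deposition. The sfr6-3 allele affects MED16, whose product sits in the tail of the Mediator complex, and the series title names MED16 in connection with suppression of the cob phenotype. Seedlings of all groups were 7 days old and kept in 24 h light, and the labels name no treatment.

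These proteins belong to the hydroxyproline-rich glycoproteins of the plant cell wall. Their prolines are hydroxylated and sugar chains are added in the secretory pathway. Extensins are then cross-linked through tyrosines into a covalent wall network, arabinogalactan proteins carry large branched polysaccharides, and proline-rich proteins are more lightly glycosylated. LRX proteins join a leucine-rich repeat domain, which binds RALF peptides, to an extensin domain anchored in the wall, and they act with the receptor kinase FERONIA in sensing the wall.

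WT replicate 1 stood apart from the other 7 libraries before any comparison. It held 324504432 gene reads, and the other 7 libraries held between 24011199 and 37744914. In each of the 25179 genes with a unique read, WT replicate 1 had at least as many unique reads as the other 7 libraries together, and in 1178 of these genes exactly as many. Whether it contains reads of the other libraries was not tested. Differences of the members from WT are therefore also given without it or with the unique reads of the other 7 libraries subtracted from it. Leaving it out leaves 1 WT library, so the spread in that fit comes from the other genotypes. For related genes and markers, some results against WT are given only from the fit of all 8 libraries. The targeted genes followed the labels. COB stood at 66.9 to 82.5 CPM (counts per 1000000 reads after TMM scaling) in the 4 libraries with cob-6 and at 143 to 239 CPM in the other 4. MED16 stood at 7.48 to 10.8 CPM in the 4 libraries with sfr6-3 and at 24.3 to 39.2 CPM in the other 4. Of 15 markers of green tissue none was at 0 in any library, and of 15 root markers at most 1 was. No label states that replicates came from separate cultures, and p-values therefore measure only how far these libraries spread. In whole seedlings, fewer cells of a type and less RNA per cell cannot be told apart.

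Between genes, levels were compared on the deposited RPKM scale, which divides exon reads by exon length. PRP4 had the highest mean RPKM of the members in every genotype, with a range of 239 to 378 RPKM over the 8 libraries. EXT3 ranged from 122 to 322 RPKM and AGP31 from 160 to 242 RPKM. The LRX genes and AGP4 lay lower, with LRX3 at 52.6 to 84.2 RPKM, LRX4 at 47.8 to 82.2 RPKM, AGP4 at 44.0 to 71.6 RPKM and LRX5 at 27.4 to 36.4 RPKM. PRP2 at 5.68 to 24.6 RPKM and AGP30 at 2.33 to 27.5 RPKM were the lowest pair in every genotype. EXT1 was the member whose place in this order moved most. It was the fourth of the 10 in WT (137 RPKM on average) and in the double mutant (87.6 RPKM), the second in cob-6 (188 RPKM, with libraries overlapping those of EXT3), and the eighth in sfr6-3 (30.3 RPKM, overlapping LRX5). Within each gene, the highest library stood 13.1 times above the lowest for AGP30, 8.88 times for EXT1, 4.12 times for PRP2 and 2.76 times for EXT3. For AGP31, AGP4, PRP4, LRX3, LRX4 and LRX5 this ratio was 1.36 to 1.73.

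**Figure D1:**
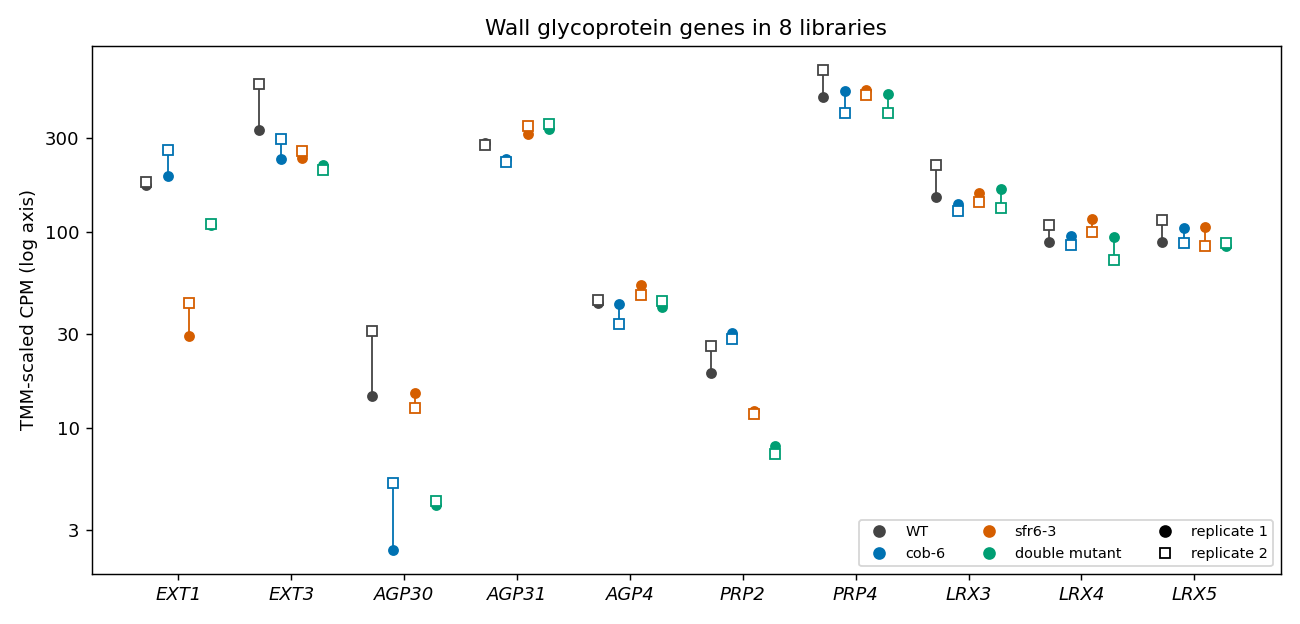
TMM-scaled CPM (log axis) of the 10 genes in each library, coloured by genotype, with filled circles for replicate 1, open squares for replicate 2 and a line joining the pair. EXT1, AGP30 and PRP2 spread over the genotypes, from 29.5 to 262, 2.38 to 31.2 and 7.37 to 30.4 CPM, whereas the 3 LRX genes lie within 72.1 to 219 CPM.

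Changes were tested with edgeR's quasi-likelihood test across 21384 genes, and a gene was called at a Benjamini-Hochberg adjusted p below 0.05 over all of them. In cob-6 against WT, 1 of the 10 members was called lower (AGP30), beside 0.0889% of all genes tested. In sfr6-3 against WT, 1 was called lower (EXT1), beside 0.131%. The double mutant had 2 members called lower than cob-6 (EXT1 and PRP2), beside 1.36%. It had 1 called higher than sfr6-3 (EXT1), beside 0.0748%, and 3 called lower than WT (EXT3, PRP2 and AGP30), beside 0.846%. The interaction, which asks whether cob-6 had another effect in sfr6-3 than in WT, called 0 members, beside 0.0514% of all genes. These 6 comparisons share libraries, so their counts are not independent of each other.

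Looser and alternative rules gave more calls. At an unadjusted p below 0.05 the members called numbered, in the same order, 3, 3, 3, 4, 4 and 2, beside 5.26%, 5.59%, 16.7%, 14.4%, 14.5% and 9.08% of all genes. DESeq2 called 1, 3, 3, 2, 4 and 1, beside 0.556%, 0.814%, 4.72%, 2.31%, 3.44% and 0.402%. The same shares of all genes apply to the counts given below for related lists and markers. The median log2 fold change of the 10 members was -0.24 in cob-6 against WT, -0.23 in sfr6-3 against WT, -0.077 in the double mutant against cob-6, -0.21 against sfr6-3 and -0.33 against WT. The median of all tested genes lay between 0.0033 and 0.019. AGP31, AGP4, PRP4 and the 3 LRX genes were called in none of the 6 comparisons by edgeR.

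**Figure D2:**
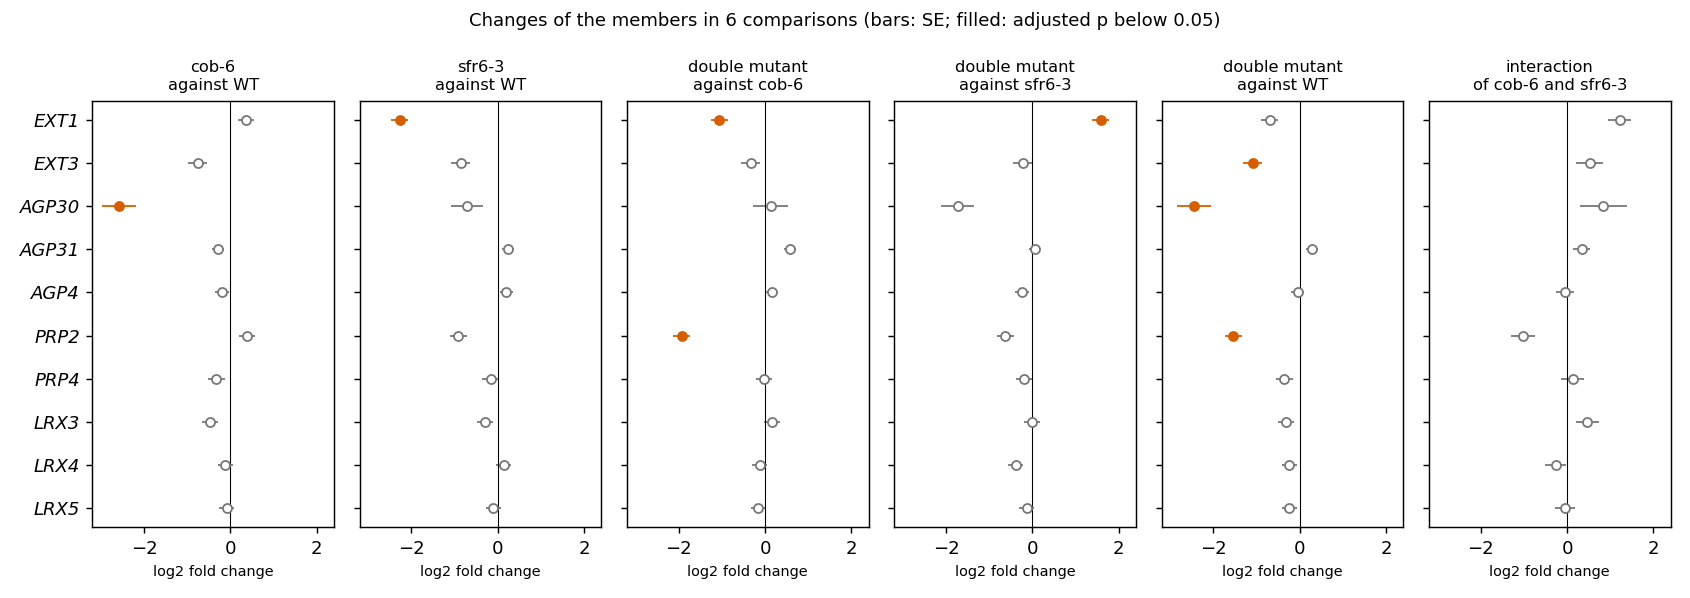
Log2 fold change of each gene with its standard error (bars) in the 6 comparisons, filled where the adjusted p of edgeR's quasi-likelihood test was below 0.05. The filled points are AGP30 in cob-6 against WT, EXT1 for sfr6-3 against WT and for the double mutant against each single mutant, PRP2 in the double mutant against cob-6 and against WT, and EXT3 and AGP30 in the double mutant against WT.

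EXT1 encodes a classical extensin, and its transcript was lower wherever sfr6-3 was present than in the same COB background without it. The gene lies at chr1:28895301-28896883 in the deposited coordinates, 1-based, on the minus strand, and overlaps no other listed gene. Extensin coding sequence is recognised by serine codons followed by runs of proline codons, and the stretches below show that repeat in the 2 extensins among the members. Each is 150 bases of coding sequence read from the RefSeq genome TAIR10.1 on the minus strand, at chr1:28896620-28896769 for EXT1 and chr1:7454743-7454892 for EXT3, and capitals mark each serine codon followed by 4 proline codons.
EXT1: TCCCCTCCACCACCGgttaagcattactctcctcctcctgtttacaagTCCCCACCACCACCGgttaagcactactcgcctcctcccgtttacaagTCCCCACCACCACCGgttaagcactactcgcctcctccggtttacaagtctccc
EXT3: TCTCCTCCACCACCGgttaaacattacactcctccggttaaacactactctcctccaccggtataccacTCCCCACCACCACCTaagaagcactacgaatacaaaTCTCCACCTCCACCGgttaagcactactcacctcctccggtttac
The whole coding sequence held 9 such blocks in 293 codons of EXT1 and 28 in 431 codons of EXT3. Of 27444 coding genes, 269 (0.98%) had at least 1 block and 24 (0.0875%) had at least 10.

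EXT1 stood at 172 and 180 CPM in the WT libraries and at 192 and 262 CPM for cob-6. In sfr6-3 it stood at 29.5 and 43.1 CPM, and in the double mutant at 109 CPM in both libraries. The 4 genotypes did not overlap, in the order cob-6, WT, double mutant, sfr6-3. With the reads of the other libraries subtracted, WT replicate 1 stood at 252 CPM of unique reads and WT replicate 2 at 189 CPM, and cob-6 at 201 and 275 CPM, so WT and cob-6 then overlapped.

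In sfr6-3 against WT, EXT1 fell by 2.28 on the log2 scale (SE 0.20), a 4.85-fold lower level, with an adjusted p of 0.00113 in edgeR's quasi-likelihood test. Without WT replicate 1 the difference was -2.31 (adjusted p = 0.000433), and with the reads of the other 7 subtracted from it the difference was -2.53 (adjusted p = 4.22e-05). In the double mutant EXT1 was between the single mutants. It fell by 1.06 (SE 0.19) from cob-6, 2.08-fold, with an adjusted p of 0.0232 in edgeR's test, and it rose by 1.58 (SE 0.20) from sfr6-3, 3.00-fold, with an adjusted p of 0.0124. Against WT, its difference in the double mutant was -0.69 (adjusted p = 0.135 in edgeR, 0.0140 in DESeq2, and in edgeR 0.0169 with the reads of the other 7 subtracted from WT replicate 1 and 0.108 without it). From WT to cob-6 its difference was 0.37 (SE 0.19, adjusted p = 0.995), 0.33 without WT replicate 1 and 0.11 with the subtraction. The call against cob-6 was lost without cob-6 replicate 2 (adjusted p = 0.214) and without double mutant replicate 2 (adjusted p = 0.0917). The call against sfr6-3 was lost without sfr6-3 replicate 1 (adjusted p = 0.144) and without double mutant replicate 2 (adjusted p = 0.0698), whereas the fall in sfr6-3 was called without any 1 library. The share of EXT1 reads that fell in introns was 8.33% to 12.3% over the 8 libraries, with the genotypes intermixed.

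EXT3, at chr1:7453236-7455009 on the minus strand, encodes the extensin also known as RSH, which is needed for the positioning of the cell plate in the embryo. Its highest levels were in WT, at 332 and 570 CPM. It stood at 235 and 298 CPM for cob-6, at 238 and 258 for sfr6-3, and at 218 and 206 for the double mutant. Both WT libraries lay above the other 6, and the gap between the WT libraries was 0.78 on the log2 scale. From WT to the double mutant, EXT3 fell by 1.09 (SE 0.22), 2.12-fold, with an adjusted p of 0.0464 in edgeR's quasi-likelihood test.

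The call for EXT3 depended on single libraries. With WT replicate 1 left out the difference of the double mutant was -1.42 (adjusted p = 0.000735), and with the reads of the other 7 subtracted -1.21 (adjusted p = 0.00125). It was not called without any 1 of the other 7 libraries, with adjusted p from 0.0564 without cob-6 replicate 2 to 0.365 without WT replicate 2, where the difference was -0.64. In the single mutants, EXT3 differed from WT by -0.75 in cob-6 (SE 0.22, adjusted p = 0.521) and by -0.86 in sfr6-3 (SE 0.22, adjusted p = 0.321), where DESeq2 gave adjusted p of 0.0519 and 0.00921, the second a call. With only 1 WT library left, these differences were -1.09 and -1.20 without WT replicate 1 and -0.31 and -0.42 without WT replicate 2. With the reads of the other 7 libraries subtracted from WT replicate 1, edgeR called both differences. They were then -0.88 in cob-6 (adjusted p = 0.0471) and -0.98 in sfr6-3 (adjusted p = 0.0177). The double mutant was not called apart from either single mutant for EXT3, with adjusted p of 0.474 against cob-6 and 0.670 against sfr6-3 in edgeR and 0.436 and 0.668 in DESeq2.

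Of 17 other extensin genes of the family, 15 passed the filter on low counts, and AT4G08370 and AT4G08380 had 2 and 0 reads in all libraries together. The median log2 fold change of the 15 was 0.68 in cob-6 against WT with 11 above 0, and -0.83 in sfr6-3 against WT with 14 below 0. It was -0.98 in the double mutant against cob-6 with 13 below 0, and 0.67 against sfr6-3 with 10 above 0. Against WT it was -0.46 in the double mutant, and the interaction's median was 0.055. In the fit of all 8 libraries, edgeR called 1 lower for cob-6 against WT and, for the double mutant against cob-6, 1 higher and 2 lower. In these 2 comparisons 11 and 11 of the 15 had an unadjusted p below 0.05, and DESeq2 called 5 and 7. In the same fit edgeR called 0 in the other 4 comparisons. DESeq2 called 3, 4, 1 and 0 there, and 11, 8, 7 and 2 of the 15 had an unadjusted p below 0.05. Of all genes, 5.26% and 16.7% had such a p in the 2 comparisons with calls, and 5.59%, 14.4%, 14.5% and 9.08% in the other 4. Without WT replicate 1 the median of the 15 was 0.76 in cob-6 against WT and -0.52 in sfr6-3 against WT. Reads of EXT6 (AT2G24980) were 89.9% unique, so part of its count is shared with copies.

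The called extensins did not all follow EXT1. AT1G23720 stood at 57.7 and 82.4 CPM for WT, at 27.7 and 25.5 for cob-6, at 89.7 and 81.6 for sfr6-3 and at 54.1 and 47.4 for the double mutant. It fell by 1.39 (SE 0.18) in cob-6 against WT (adjusted p = 0.0150) and rose by 0.93 (SE 0.18) in the double mutant against cob-6 (adjusted p = 0.0298, edgeR). EXT1 was called with the opposite sign in the second comparison, whereas its difference of 0.37 in the first was not called (adjusted p = 0.995). With WT replicate 1 left out the difference of AT1G23720 in cob-6 against WT was -1.63. AT3G54580 stood at 61.5 and 64.7 CPM for WT, 101 and 97.5 for cob-6, 54.1 and 38.4 for sfr6-3 and 49.2 and 41.4 for the double mutant. It fell by 1.13 (SE 0.17) in the double mutant against cob-6 (adjusted p = 0.00983). AT1G26250 fell by 1.29 (SE 0.26) in that comparison (adjusted p = 0.0391), from 11.5 and 17.7 CPM to 6.10 and 5.87 CPM. EXT6 gave the smallest p of the list in the double mutant against sfr6-3, at 1.68 (adjusted p = 0.0643), and AT2G43150 in the double mutant against WT, at -0.81 (adjusted p = 0.0751). Without WT replicate 1 the difference of AT2G43150 from WT was -1.06 in the double mutant. AT2G43150 was abundant, at 713 and 1035 CPM for WT and 439 to 649 CPM in the mutants. No call of AT1G23720, AT3G54580 or AT1G26250 held without cob-6 replicate 1 or without cob-6 replicate 2 (adjusted p from 0.0584 to 0.385), and those in the double mutant were also lost without double mutant replicate 2 (0.0596 to 0.106). That of AT1G26250 was lost without either sfr6-3 library (0.0573 and 0.0577) and with the replicate block (0.0579).

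Root-hair marker genes, like EXT1, had their highest sum in cob-6 and their lowest in sfr6-3. The summed level of 10 root-hair markers was 102 to 156 CPM for WT, 254 to 283 for cob-6, 78.4 to 91.3 for sfr6-3 and 132 to 162 for the double mutant, and none of the 10 was at 0 in a library. Their median log2 fold change was 1.02 in cob-6 against WT and -0.41 in sfr6-3 against WT. It was -0.89 in the double mutant against cob-6 and 0.56 against sfr6-3. None of the 10 was called by edgeR in any comparison, with 6, 3, 6 and 3 of them at an unadjusted p below 0.05 in those 4 and 4, 0, 5 and 2 called by DESeq2. Of all genes, 5.26%, 5.59%, 16.7% and 14.4% had such an unadjusted p, and DESeq2 called 0.556%, 0.814%, 4.72% and 2.31%. The part of these markers in the levels of EXT1 and the other extensins was not tested. The sums of 15 root markers lay closer together, at 229 to 251 CPM for WT, 186 to 219 for cob-6, 248 to 287 for sfr6-3 and 232 to 238 for the double mutant.

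AGP30, a non-classical arabinogalactan protein gene known from roots, was low in both genotypes with the cob-6 allele. It lies at chr2:14293561-14295271. It stood at 14.5 and 31.2 CPM for WT and at 14.9 and 12.6 for sfr6-3. It stood at 2.38 and 5.21 CPM for cob-6 and at 4.04 and 4.22 for the double mutant. The 4 libraries with cob-6 lay below the 4 without it, and within each of these sets the genotypes overlapped. The overlap of WT and sfr6-3 rested on WT replicate 1. With the reads of the other 7 libraries subtracted from it, WT stood at 22.2 and 32.7 CPM of unique reads. On that scale sfr6-3 stood at 15.7 and 13.2 CPM, so WT and sfr6-3 did not overlap. The summed root markers given above were lower in cob-6 than in the other genotypes, whereas in the double mutant they lay within the WT range.

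In cob-6 against WT, AGP30 fell by 2.58 on the log2 scale (SE 0.40), 5.97-fold, with an adjusted p of 0.0354 in edgeR's quasi-likelihood test. From WT to the double mutant it fell by 2.45 (SE 0.39), 5.47-fold (adjusted p = 0.0136). Without WT replicate 1 these differences were -3.04 (adjusted p = 0.00131) and -2.91 (adjusted p = 0.000476), and with the reads of the other 7 subtracted -2.78 (adjusted p = 0.000855) and -2.65 (adjusted p = 0.000222). In the double mutant against sfr6-3 the difference was -1.74 (SE 0.39), not called by edgeR (adjusted p = 0.113). It was called by DESeq2 (adjusted p = 0.00138) and by edgeR without WT replicate 1 (adjusted p = 0.0280) or without WT replicate 2 (adjusted p = 0.0348). The double mutant differed from cob-6 by 0.13 (SE 0.40, adjusted p = 0.905). From WT to sfr6-3 the difference was -0.72 (SE 0.36, adjusted p = 0.962), and -0.92 with the reads of the other 7 subtracted (adjusted p = 0.262). It was -1.18 without WT replicate 1 and -0.073 without WT replicate 2.

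The count behind AGP30 was small in the mutants, at 62 and 127 reads in cob-6 and 104 and 157 reads in the double mutant. The call in cob-6 was lost without cob-6 replicate 1 (adjusted p = 0.383), cob-6 replicate 2 (0.0642), WT replicate 2 (0.0892), sfr6-3 replicate 1 (0.0859) or sfr6-3 replicate 2 (0.0844). The call in the double mutant against WT was lost without double mutant replicate 1 (adjusted p = 0.0544), double mutant replicate 2 (0.0887) or WT replicate 2 (0.0643). Of the 157 reads in double mutant replicate 2, 43 (27.4%, 95% Wilson interval 21.0 to 34.8%) were intron reads, against 2.57% of all gene reads of that library. The other 7 libraries had 0 to 1.99% of AGP30 reads in introns, and for the 0 of 104 in double mutant replicate 1 a limit of 3 reads equals a share of 2.88%, below the upper Wilson bound of 3.56%. These limits cover counting error only. On exon reads alone the RPKM of AGP30 was 3.75 and 2.86 in the double mutant and 2.33 and 5.01 in cob-6.

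AGP31, a non-classical arabinogalactan protein gene of vascular tissue, was lowest in cob-6 and highest in the genotypes with sfr6-3. It lies at chr1:9889125-9890993. It stood at 284 and 278 CPM for WT, 234 and 227 for cob-6, 317 and 347 for sfr6-3 and 334 and 354 for the double mutant. The sfr6-3 and double mutant libraries overlapped, and the other neighbours in that order did not. Between the double mutant and cob-6 the difference was 0.58 (SE 0.13), 1.49-fold. It was not called by edgeR (adjusted p = 0.0614) and was called by DESeq2 (adjusted p = 0.000479). Against WT it differed by -0.29 for cob-6 (adjusted p = 0.949), 0.24 for sfr6-3 (0.976) and 0.29 for the double mutant (0.347), and without WT replicate 1 by -0.27, 0.26 and 0.31, none of them called. Summed xylem markers followed the same order over part of the genotypes, with 149 to 154 CPM for cob-6, 175 to 208 for WT, 186 to 194 for the double mutant and 245 to 275 for sfr6-3. None of these 8 markers was at 0 in a library or called by edgeR in a comparison, with 0, 1, 3, 3, 0 and 0 of them at an unadjusted p below 0.05 and 0, 1, 0, 2, 0 and 0 called by DESeq2, and their part in the level of AGP31 was not tested.

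AGP4, a classical membrane-anchored arabinogalactan protein gene also named JAGGER for its role in the pistil, lies at chr5:3277532-3278313. It varied little, with 43.4 and 44.7 CPM for WT, 43.0 and 33.9 for cob-6, 53.4 and 47.5 for sfr6-3 and 41.2 and 44.3 for the double mutant. Its differences lay between -0.24 and 0.20 on the log2 scale, each with a standard error of 0.15 outside the interaction, and none was called. With WT replicate 1 left out it differed from WT by -0.22, 0.18 and -0.063 for cob-6, sfr6-3 and the double mutant.

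Among 27 other arabinogalactan protein genes, 24 passed the filter. In the fit of all 8 libraries none of them was called by edgeR in any of the 6 comparisons. The number at an unadjusted p below 0.05 was 5, 8, 3, 9, 6 and 3 of them, and DESeq2 called 1, 0, 1, 4, 1 and 1. Of all genes, 5.26%, 5.59%, 16.7%, 14.4%, 14.5% and 9.08% had such an unadjusted p. The median log2 fold change of the 24 was -0.19 in cob-6 against WT, -0.32 in sfr6-3 against WT, -0.024 in the double mutant against cob-6 and 0.28 against sfr6-3. Without WT replicate 1 it was -0.27 in cob-6 and -0.28 in sfr6-3 against WT. AGP22, which encodes a short AG peptide, had the smallest p of the list in both comparisons that add cob-6. It stood at 28.3 and 29.3 CPM for WT and 19.2 and 15.7 for cob-6, a difference of -0.72 (adjusted p = 0.272). It stood at 43.6 and 37.3 CPM for sfr6-3 and 25.9 and 24.0 for the double mutant, a difference of -0.70 (adjusted p = 0.125). The smallest p elsewhere belonged to AGP18 for sfr6-3 against WT (-0.59, adjusted p = 0.295) and AGP24 for the double mutant against WT (-0.59, adjusted p = 0.127). AGP1 had it in the double mutant against cob-6 (0.55, adjusted p = 0.103) and in the interaction (0.96, adjusted p = 0.321).

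Genes that hydroxylate and glycosylate these proteins gave no edgeR call in the fit of all 8 libraries. Of 28 listed genes for prolyl hydroxylases and for arabinosyl, galactosyl and fucosyl transfer, 27 were tested and none was called by edgeR. The number at an unadjusted p below 0.05 was 1, 1, 2, 3, 3 and 1 in the 6 comparisons, and DESeq2 called 0, 0, 0, 0, 1 and 0. Of all genes, 5.26%, 5.59%, 16.7%, 14.4%, 14.5% and 9.08% had such an unadjusted p. The medians of the 27 lay between -0.069 and 0.078. The prolyl hydroxylase gene P4H5 stood at 59.3 and 53.1 CPM for WT and 72.4 and 75.1 for cob-6, a difference of 0.39 (adjusted p = 0.740). The arabinosyltransferase gene RRA2, which extends the arabinose chains of extensins, had the smallest p in the interaction (1.33, adjusted p = 0.501). B3GALT19 had it in the double mutant against cob-6 (0.52, adjusted p = 0.242) and against sfr6-3 (0.73, adjusted p = 0.181). AT5G25265 had it in sfr6-3 (-0.37, adjusted p = 0.875) and in the double mutant (-0.55, adjusted p = 0.158) against WT. Without WT replicate 1 these differences of AT5G25265 were -0.58 and -0.76.

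PRP2 encodes a proline-rich wall protein known from aerial organs, and its lowest levels were in the double mutant. It lies at chr2:9060625-9062091. It stood at 18.9 and 26.1 CPM for WT and at 30.4 and 28.3 for cob-6. It stood at 12.1 and 11.7 CPM for sfr6-3 and at 8.05 and 7.37 for the double mutant. The 4 genotypes did not overlap, in the order cob-6, WT, sfr6-3, double mutant.

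In the double mutant against cob-6, PRP2 fell by 1.93 on the log2 scale (SE 0.20), 3.81-fold, with an adjusted p of 0.000922 in edgeR's quasi-likelihood test. Against WT it fell by 1.54 (SE 0.19), 2.91-fold (adjusted p = 0.00516). The difference was -1.76 without WT replicate 1 (adjusted p = 0.000534) and -1.65 with the reads of the other 7 subtracted (adjusted p = 0.000144). Both falls were called without any 1 library. In sfr6-3 against WT the difference was -0.91 (SE 0.19), not called by edgeR (adjusted p = 0.140) and called by DESeq2 (adjusted p = 0.0121). edgeR called it with the reads of the other 7 subtracted from WT replicate 1 (-1.02, adjusted p = 0.0147). Without WT replicate 1 the difference was -1.13. Between the double mutant and sfr6-3 it was -0.63 (SE 0.20, adjusted p = 0.200), and in cob-6 against WT 0.39 (SE 0.19, adjusted p = 0.949, and 0.17 without WT replicate 1).

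PRP4, also known from aerial organs and the most abundant member, lies at chr4:18096809-18098565. It stood at 488 and 669 CPM for WT, 522 and 403 for cob-6, 532 and 501 for sfr6-3 and 502 and 404 for the double mutant. All neighbouring genotypes overlapped, and its differences from WT were -0.32 for cob-6, -0.17 for sfr6-3 and -0.35 for the double mutant (SE 0.19 each, lowest adjusted p = 0.420). With WT replicate 1 left out they were -0.53, -0.38 and -0.56, with none called.

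The other PRP genes, PRP1 and PRP3, are known from roots and root hairs and stood in another order. PRP1 stood at 8.98 and 3.21 CPM for WT, 21.1 and 19.7 for cob-6, 2.38 and 0.898 for sfr6-3 and 7.93 and 10.8 for the double mutant. PRP3 stood at 29.1 and 15.7 CPM for WT, 55.4 and 47.6 for cob-6, 15.7 and 16.0 for sfr6-3 and 25.2 and 41.5 for the double mutant. In the fit of all 8 libraries, edgeR called neither gene in a comparison. Of the 2, the number at an unadjusted p below 0.05 was 2, 1, 2, 2, 0 and 0, and DESeq2 called 2, 1, 0, 2, 0 and 0. Without WT replicate 1, PRP3 differed from WT by 1.72 in cob-6 and by 1.09 in the double mutant. The largest difference was that of PRP1 in the double mutant against sfr6-3, at 2.52 (SE 0.49, adjusted p = 0.0781). Both had their highest levels in cob-6, as did the root-hair markers, whose part in these levels was not tested.

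None of the 3 vegetative LRX genes was called in a comparison. Their extensin domains carry the same serine and proline repeat as EXT1 and EXT3, shown here for LRX3 over 150 coding bases at chr4:7759834-7759983 on the plus strand of TAIR10.1, with capitals again marking a serine codon followed by 4 proline codons.
LRX3: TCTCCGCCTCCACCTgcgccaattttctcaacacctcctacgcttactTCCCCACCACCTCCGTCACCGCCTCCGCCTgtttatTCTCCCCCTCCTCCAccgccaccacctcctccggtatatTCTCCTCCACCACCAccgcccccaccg
The coding sequences held 28 such blocks in LRX3, 4 in LRX4 and 8 in LRX5, and 0 in the AGP and PRP members.

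LRX3, at chr4:7758610-7761057, stood at 151 and 219 CPM for WT, 138 and 127 for cob-6, 158 and 142 for sfr6-3 and 166 and 132 for the double mutant. LRX4, at chr3:8901154-8902638, stood at 88.1 and 108 CPM for WT, 95.5 and 85.2 for cob-6, 116 and 99.9 for sfr6-3 and 93.8 and 72.1 for the double mutant. LRX5, at chr4:10275462-10278491, stood at 89.0 and 115 CPM for WT, 105 and 87.1 for cob-6, 105 and 84.1 for sfr6-3 and 84.7 and 87.6 for the double mutant. For each of the 3, every genotype overlapped its neighbours in the order of mean levels. The difference furthest from 0 was that of LRX3 in cob-6 against WT, at -0.48 (SE 0.19, unadjusted p = 0.0249, adjusted p = 0.810), where both cob-6 libraries lay below both WT libraries. With WT replicate 1 left out it was -0.73 (adjusted p = 0.136), and no LRX member was called against WT, where LRX4 and LRX5 differed by -0.41 to -0.0020 over the 3 mutants. LRX3 gave 0.47 in the interaction (SE 0.26, adjusted p = 0.619). LRX4 in the double mutant against sfr6-3 stood at -0.38 (SE 0.17, adjusted p = 0.334).

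Of 8 other genes of the LRX family, which are known from root hairs and pollen, 7 were tested (LRX7 had 14 reads in all libraries together). None was called by edgeR in the fit of all 8 libraries. DESeq2 called 0, 0, 1, 0, 0 and 0 in the 6 comparisons, and 1, 1, 2, 1, 1 and 1 had an unadjusted p below 0.05. Of all genes, 5.26%, 5.59%, 16.7%, 14.4%, 14.5% and 9.08% had such an unadjusted p. The root-hair gene LRX1 stood at 7.21 and 5.27 CPM for WT, 12.8 and 9.85 for cob-6, 5.50 and 3.48 for sfr6-3 and 9.06 and 7.10 for the double mutant. It had the smallest p of the list for cob-6 against WT (0.85, adjusted p = 0.722) and for the double mutant against sfr6-3 (0.85, adjusted p = 0.251). LRX2, also of root hairs, had it in the double mutant against cob-6 (-1.39, adjusted p = 0.128), and PEX3 in sfr6-3 (-0.62, adjusted p = 0.781) and the double mutant (-0.70, adjusted p = 0.228) against WT. Without WT replicate 1, PEX3 differed from WT by -0.96 in sfr6-3 and by -1.03 in the double mutant. AT3G19020, of the pollen group, had it in the interaction (0.92, adjusted p = 0.539).

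FERONIA and 4 RALF peptide genes, which encode binding partners of the LRX proteins, gave no edgeR call in the fit of all 8 libraries either. DESeq2 called 1, in the double mutant against WT, and 0, 2, 2, 3, 1 and 2 of the 5 had an unadjusted p below 0.05. Of all genes, 5.26%, 5.59%, 16.7%, 14.4%, 14.5% and 9.08% had such an unadjusted p. RALF1, a root-growth peptide gene, stood at 33.4 and 46.7 CPM for WT, 33.4 and 32.4 for cob-6, 29.5 and 26.2 for sfr6-3 and 26.4 and 20.9 for the double mutant. Its difference in the double mutant against WT was -0.76 (adjusted p = 0.0944), and -0.98 without WT replicate 1. RALF23, a peptide gene that acts in immunity through FERONIA, had the smallest p of this list in 4 comparisons, among them the double mutant against cob-6, where its difference was 0.53 (adjusted p = 0.196). RALF1 had it in the other 2, with -0.52 in sfr6-3 against WT (adjusted p = 0.707), and -0.75 without WT replicate 1.

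**Figure D3:**
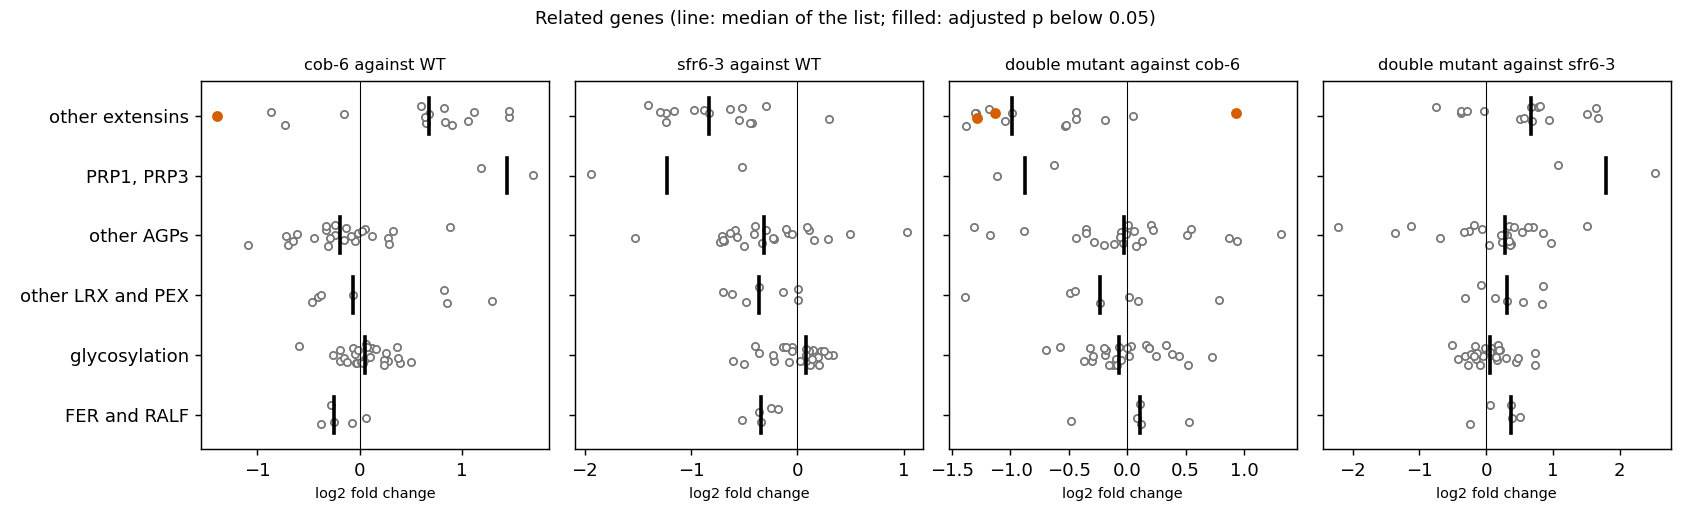
Log2 fold change of each related gene (points, filled where the adjusted p was below 0.05) by list in 4 comparisons, with a line at the median of each list and a separate axis range in each panel. The extensin medians lie at 0.68, -0.83, -0.98 and 0.67, and 3 extensins are filled in the double mutant against cob-6 and 1 in cob-6 against WT.

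Whether the effect of cob-6 depended on sfr6-3 was asked by the interaction. For EXT1 the log2 difference that came with cob-6 was 0.37 in the MED16 background and 1.58 in the sfr6-3 background, an interaction of 1.22 (SE 0.27). Its unadjusted p was 0.000809 and its adjusted p 0.326 in edgeR's quasi-likelihood test, whereas DESeq2 called it (adjusted p = 0.00483). Over the alternatives the adjusted p of EXT1 ran from 0.000218 without the filter on low counts to 0.835 without cob-6 replicate 1, and the sign was positive in all. For PRP2 the difference was 0.39 in the MED16 background and -0.63 in the sfr6-3 background, an interaction of -1.02 (SE 0.27, unadjusted p = 0.00275, adjusted p = 0.400 in edgeR and 0.163 in DESeq2). For AGP30 the differences with cob-6 were -2.58 and -1.74, with an interaction of 0.84 (SE 0.54, adjusted p = 0.665). For EXT3 the interaction was 0.53 (SE 0.31, adjusted p = 0.631). Without WT replicate 1 the interactions of EXT1, PRP2, AGP30 and EXT3 were 1.25, -0.80, 1.30 and 0.87, with none called.

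**Figure D4:**
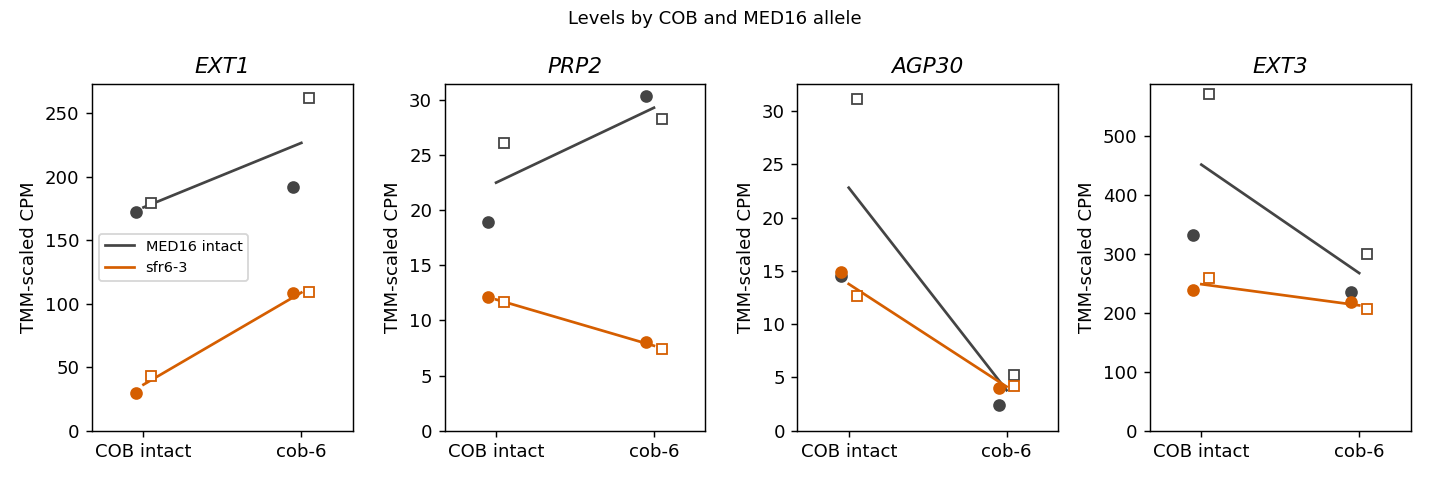
TMM-scaled CPM of 4 genes by COB allele (horizontal axis) and MED16 allele (colour), with filled circles for replicate 1, open squares for replicate 2 and lines through the genotype means. EXT1 is higher with cob-6 on both lines, PRP2 lies higher with cob-6 on the MED16 line and lower on the sfr6-3 line, and the AGP30 lines meet near 4 CPM with cob-6; edgeR called none of the 4 interactions.

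The sequence before the gene start is given for the 3 members with the widest range of levels, because they differ in the order of the genotypes. Each line holds the 250 bases before the RefSeq gene start on the minus strand of TAIR10.1, at chr1:28897121-28897370 for EXT1, chr2:9062094-9062343 for PRP2 and chr2:14295354-14295603 for AGP30. The RefSeq starts of EXT1 and AGP30 lie upstream of the starts in the deposited table. Capitals mark matches on either strand to CCGAC (the core of the element bound by CBF factors), CACGTG (the G-box), TTGAC (the core of the W-box bound by WRKY factors) or GCCGCC (the GCC-box).
EXT1: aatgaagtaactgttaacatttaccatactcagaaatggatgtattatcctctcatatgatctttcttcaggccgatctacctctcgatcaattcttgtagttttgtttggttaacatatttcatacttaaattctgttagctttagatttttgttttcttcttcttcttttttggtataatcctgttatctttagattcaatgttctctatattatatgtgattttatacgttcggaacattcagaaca
PRP2: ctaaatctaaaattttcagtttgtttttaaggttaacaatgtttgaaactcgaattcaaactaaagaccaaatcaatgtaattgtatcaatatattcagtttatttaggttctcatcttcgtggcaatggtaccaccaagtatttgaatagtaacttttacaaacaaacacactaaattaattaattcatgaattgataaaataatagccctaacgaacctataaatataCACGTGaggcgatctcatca
AGP30: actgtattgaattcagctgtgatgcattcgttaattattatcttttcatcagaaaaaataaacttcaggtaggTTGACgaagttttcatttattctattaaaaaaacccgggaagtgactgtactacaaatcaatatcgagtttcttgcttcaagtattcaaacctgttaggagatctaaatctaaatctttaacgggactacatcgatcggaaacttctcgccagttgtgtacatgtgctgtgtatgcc
EXT1 had no match, PRP2 had CACGTG at position -20 and AGP30 had TTGAC at position -177, counted back from the gene start, and no matches overlapped. Over 27443 promoters of the same length, CCGAC was found in 12.0%, CACGTG in 6.49%, TTGAC in 44.9% and GCCGCC in 1.87%. Among the other 7 members, EXT3 held CCGAC at -173 and TTGAC at -214, AGP4, PRP4 and the 3 LRX genes held TTGAC, and AGP31 held none.

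The genes most like each called member over the 8 libraries were found by the root mean square difference of mean-centred log2 CPM. For EXT1 they were AT1G19380 (0.33), the extensin AT1G26250 (0.42) and AT5G62360 (0.44), against a spread of 1.03 of EXT1 around its own mean. For PRP2 (spread 0.76) they were AT5G61660 (0.19), FUM2 (0.20) and AT5G22580 (0.20). For AGP30 (spread 1.17) they were MLP328 (0.53), AT4G33610 (0.55) and COB itself (0.55), which carries the cob-6 allele. For EXT3 (spread 0.44) they were the anion channel gene SLAH3 (0.081), AT3G13310 (0.10) and the photosystem gene PSAF (0.11).

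The authors' deposited table compares the double mutant with cob-6. In the authors' deposited table EXT1 had a signed fold of -2.07 (p = 2.73e-07) and PRP2 one of -3.75 (p = 8.31e-06). AGP31 had a signed fold of 1.49 (p = 9.96e-05) in the authors' deposited table, and the other 7 members had p of 0.147 or above there.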

How the data were processed

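RNA of whole seedlings was sequenced as 100-base paired-end libraries, per the labels, with 2 libraries in each of 4 genotypes. The authors deposited whole-number counts per gene (total, unique, exon and intron gene reads) and RPKM values, per the file headers. The deposited RPKM equalled exon reads over exon length and total gene reads within 0.1% for all but at most 1 gene per library. The authors also deposited a signed fold (read as a score without fixed range) and its p-value for the double mutant against cob-6, per the file headers. The aligner, the counter, its use of strand and the build were not given in the sources used here. Because strand use is unknown, overlapping genes were looked for, and no member overlapped one. The deposited positions of 6030 of 6031 genes of equal length matched the RefSeq annotation of TAIR10.1, so sequence was read from that genome.

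Total gene reads were fitted with edgeR 4.0.16 (TMM, filterByExpr, glmQLFit with 1 mean per genotype, 4 residual degrees of freedom, prior degrees of freedom 7.91) in R 4.3.3, over all 8 libraries and 21384 genes. The 6 contrasts were tested with Benjamini-Hochberg adjustment over all genes, and adjusted p-values without a named tool are from this fit. Errors are standard errors of the log2 fold change. CPM are total gene reads per 1000000 after TMM scaling, unless unique reads are named. A count of 3 reads equalled 0.00924 CPM for WT replicate 1 and 0.0795 to 0.125 CPM for the other 7 libraries. Alternatives were DESeq2 1.42.0, DESeq2-type size factors, unique reads, no filter, a replicate block, WT replicate 1 less the unique reads of the other 7 libraries, and leaving out each library. The labels state no pairing of libraries by replicate number, so no pairing was used.

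The members, the related lists (extensins, AGPs, PRPs, LRX genes, glycosylation genes, LRX partners) and the markers (root, root hair, green tissue, xylem) were chosen with earlier results of these data known. The text names all members, COB and MED16, each related gene called in a comparison or with the smallest p of its list there, and the 3 genes most like each called member (of those with mean log2 CPM 1 or above).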

Additional observations from a re-analysis of the deposited data

How the results depend on the processing

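With 2 libraries per genotype and 4 residual degrees of freedom, the counts of calls moved with the processing more than the fold changes did. Of 840 alternative values of the members' log2 fold changes, 771 kept their direction and their side of the threshold, 19 lost the call, 23 gained it and 27 changed sign. All 27 sign changes came from leaving out 1 library, and none concerned a called value. The cause of the changes in the counts was not tested. AGP30 had the lowest count of the members, with 62 reads in cob-6 replicate 1. Its replicates also lay 1.105 apart on the log2 scale in WT and 1.13 apart in cob-6.

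With DESeq2 the members called numbered 1 in cob-6 against WT and 3 in sfr6-3 against WT. In the double mutant they numbered 3 against cob-6, 2 against sfr6-3 and 4 against WT, and in the interaction 1 (EXT1). DESeq2 called 119, 174, 1010, 494, 736 and 86 genes of all tested, in the order cob-6 against WT, sfr6-3 against WT, double mutant against cob-6, against sfr6-3, against WT, and interaction, where edgeR called 19, 28, 291, 16, 181 and 11. Without the filter on low counts the members called numbered 2, 3, 3, 2, 4 and 1 in that order, and the genes called 356, 408, 1314, 833, 1185 and 224. With the unique reads of the other 7 libraries subtracted from WT replicate 1, the members called numbered 2, 3, 2, 2, 4 and 0 in that order. The genes called were then 88, 151, 419, 95, 748 and 5. On unique gene reads 48 genes were called in the double mutant against sfr6-3 and 4 in the interaction.

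Leaving out each library in turn gave 0 to 2 members in cob-6 against WT, 1 to 3 in sfr6-3 against WT, 1 to 2 in the double mutant against cob-6, 0 to 2 against sfr6-3 and 1 to 3 against WT. The genes called ranged from 0 to 138, 3 to 168, 68 to 933, 3 to 450, 75 to 767 and 4 to 31 in the 6 comparisons, where without cob-6 replicate 1 or 2 none was called in cob-6 against WT. The members whose sign changed ranged, for LRX4 and LRX5 in cob-6 against WT, from -0.26 to 0.035 and from -0.26 to 0.11. For LRX4, LRX5 and PRP4 in sfr6-3 against WT the ranges were -0.0020 to 0.29, -0.28 to 0.086 and -0.38 to 0.078. For AGP30, AGP4, LRX3, LRX4 and PRP4 in the double mutant against cob-6 they were -0.33 to 0.80, -0.0074 to 0.33, -0.0088 to 0.33, -0.33 to 0.054 and -0.21 to 0.17. For AGP31, LRX3 and LRX5 against sfr6-3 they were -0.013 to 0.11, -0.19 to 0.14 and -0.30 to 0.034, and for AGP4 against WT -0.095 to 0.0086. For AGP4, LRX5 and PRP4 in the interaction they were -0.20 to 0.14, -0.24 to 0.13 and -0.11 to 0.35.

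Over the tested genes, the deviations of libraries with the same replicate number correlated at r = -0.074 to 0.049. Such a correlation cannot exclude a shared batch that affects only some genes. With the replicate block, the members called numbered 1, 1, 2, 1, 3 and 0 in the 6 comparisons, as without it, and the genes called 21, 33, 216, 13, 176 and 8. Among the related genes called, the block ended the call of AT1G26250 in the double mutant against cob-6 (adjusted p = 0.0579).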

Other observations

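The green-tissue markers were also summed. Their level was 57430 to 62004 CPM for WT, 43412 to 52542 for cob-6, 46795 to 59687 for sfr6-3 and 55502 to 59848 for the double mutant. None of the 15 was called by edgeR in the 6 comparisons, with 5, 1, 2, 1, 4 and 2 of them at an unadjusted p below 0.05 and 2, 0, 2, 0, 2 and 0 called by DESeq2. Of the 15 root markers, edgeR also called none, with 5, 2, 5, 4, 2 and 1 at an unadjusted p below 0.05 and 1, 0, 0, 3, 2 and 0 called by DESeq2.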
